A study of Mus musculus with 12 samples.

Results

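Carboxylesterases are serine hydrolases that split ester bonds in drugs, toxins and stored lipids, and the liver is one of their main sites. In mice the family arose by repeated gene duplication, and most of its liver enzymes sit in the lumen of the endoplasmic reticulum, held there by a retrieval signal at the end of the protein. Some of them release fatty acids from triglyceride, and this ties the family to lipid storage and to the secretion of very low-density lipoprotein (VLDL). The genes described here are 10 of its members, Ces1b, Ces1c, Ces1d, Ces1e, Ces1f, Ces1g, Ces2a, Ces2e, Ces3a and Ces3b. They were taken by their symbols in GENCODE M21, and all 10 were found among the 13267 genes in the table.

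Messenger RNA was measured in 12 liver samples of C57BL/6 mice made obese with a high-fat diet until the liver was fatty. For 6 samples the mice then carried 4-hydroxyphenylacetic acid (4-HPAA), a small phenolic product of polyphenol breakdown by gut microbes, under the skin for 6 weeks, and for the other 6 they carried the scaffold alone as control. The diet and the obesity were thus common to both groups, no lean or untreated mice are among them, and the labels give no age. The labels number the samples within each group but do not say that each is a separate animal. Every sample is called a liver here, and each p-value speaks of the spread among these 12 samples. The comparison asks how the fatty liver differs between mice given the compound and mice given the scaffold.

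The 10 genes lie on mouse chromosome 8 in 2 clusters. The Ces1 genes follow each other on the minus strand, from Ces1b (chr8:93056728-93080017, ENSMUSG00000078964.2) through Ces1c (chr8:93099015-93131283, ENSMUSG00000057400.14), Ces1d (chr8:93166068-93197838, ENSMUSG00000056973.6), Ces1e (chr8:93201218-93229619, ENSMUSG00000061959.13) and Ces1f (chr8:93256236-93279747, ENSMUSG00000031725.8) to Ces1g (chr8:93302369-93337308, ENSMUSG00000057074.6). Ces2a (chr8:104734003-104741634, ENSMUSG00000055730.16), Ces2e (chr8:104926260-104934672, ENSMUSG00000031886.14), Ces3a (chr8:105048601-105058413, ENSMUSG00000069922.12) and Ces3b (chr8:105083753-105093929, ENSMUSG00000062181.14) lie on the plus strand. All positions are on GRCm38. The last 30 coding bases of each gene are shown because they hold the retrieval signal, which separates enzymes kept in the endoplasmic reticulum from those that can leave it. Capitals mark the last 4 codons before the stop codon, read from the GENCODE M21 transcripts.
Ces1b, chr8:93056887-93056916, minus strand: gaccctactgagcacAGAGAACACAAAtga
Ces1c, chr8:93099165-93099194, minus strand: gaccctactgaacacACAGAACACAAAtga
Ces1d, chr8:93166255-93166284, minus strand: ccatcccacagggaaCATGTTGAGCTCtga
Ces1e, chr8:93201404-93201433, minus strand: caactgccgacagaaCACACTGAGCTGtga
Ces1f, chr8:93256429-93256458, minus strand: caaccccagccatacCACAATGAGCTGtga
Ces1g, chr8:93302905-93302934, minus strand: tcatcccatagggaaCATGTTGAACTGtga
Ces2a, chr8:104741387-104741416, plus strand: ggttctcaggacaagCATGCAGAGCTGtag
Ces2e, chr8:104933685-104933714, plus strand: gggtctcaggagaggCACAAAGAGTTGtag
Ces3a, chr8:105058074-105058103, plus strand: agaagcaggaaagttCCAGAGGAGCTCtga
Ces3b, chr8:105093233-105093262, plus strand: agaagcaggaaagttCCAGAGGAGCTCtga

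In 6 of the 10 genes, Ces1d, Ces1e, Ces1f, Ces1g, Ces2a and Ces2e, the capitals open with CAT or CAC, hold GAG or GAA as the third codon and close with CTC, CTG or TTG, the codon pattern of the classical carboxylesterase retrieval signal. Ces1b and Ces1c end differently, and each differs from Ces1d at 10 of the 12 capital positions. Ces1c is known as the esterase of mouse plasma, made by the liver and secreted. Ces3a and Ces3b share identical ends, which keep the third and last codon but open with CCA.

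The coding sequences are close copies of each other, which bears on how far the reads can be told apart. Within Ces1 they were identical at 74.5 to 91.2% of aligned bases, the highest being Ces1b with Ces1c. Ces2a and Ces2e were identical at 83.3%, and Ces3a and Ces3b at 95.3%. Between the subfamilies identity was 62.9 to 65.3%. Of all 50-base windows in its messenger RNA, Ces3a shared 30.9% with another gene, Ces3b 26.1%, Ces2a 22.2%, Ces1c 17.0% and Ces1b 11.6%, whereas Ces1d, Ces1e, Ces1f, Ces1g and Ces2e shared 1.3 to 3.4%. The sources used here do not say how reads from such windows were assigned, so values of the genes with the largest shares, Ces3a, Ces3b and Ces2a, are the least certain.

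Ces1b and Ces1c also had similar promoters. The promoters below are the 250 bases before the start from RefSeq on GRCm38.p6, which matched 7 of the 10 genes (not Ces1d, Ces1f or Ces3a). RefSeq gives 2 starts for Ces1b, 77 bases apart, and the one printed lies within the GENCODE gene given above. From this start, 223 aligned bases of Ces1b and Ces1c were 94.6% identical, and from the other, at the end of the GENCODE gene, 147 aligned bases were 95.2% identical. Capitals mark the longest run that Ces1b and Ces1c have in common, 58 bases, and Ces1e is shown beside them because its values differed most from theirs between the groups.
Ces1b, chr8:93079941-93080190, minus strand: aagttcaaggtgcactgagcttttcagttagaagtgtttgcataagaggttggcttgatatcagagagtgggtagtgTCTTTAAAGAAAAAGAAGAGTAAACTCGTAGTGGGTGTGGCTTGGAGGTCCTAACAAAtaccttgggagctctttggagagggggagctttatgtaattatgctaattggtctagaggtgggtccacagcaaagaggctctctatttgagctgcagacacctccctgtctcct
Ces1c, chr8:93131284-93131533, minus strand: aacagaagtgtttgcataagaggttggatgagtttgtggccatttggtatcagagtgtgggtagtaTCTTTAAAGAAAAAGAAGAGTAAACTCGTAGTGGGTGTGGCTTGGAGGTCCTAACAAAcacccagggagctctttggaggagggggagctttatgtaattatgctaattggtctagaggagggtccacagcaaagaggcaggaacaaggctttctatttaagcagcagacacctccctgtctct
Ces1e, chr8:93229620-93229869, minus strand: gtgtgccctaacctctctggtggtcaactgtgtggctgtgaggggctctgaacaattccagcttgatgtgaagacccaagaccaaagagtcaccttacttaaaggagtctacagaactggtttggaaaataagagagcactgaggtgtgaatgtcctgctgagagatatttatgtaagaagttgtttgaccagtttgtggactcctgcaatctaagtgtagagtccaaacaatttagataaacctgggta

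The other 20 pairs of matched promoters had no common run longer than 17 bases. Short motifs were searched in the same 250 bases. AGGTCA, the core that nuclear receptors bind, was sought on both strands and found in Ces2a, as in 14.0% of all 32851 RefSeq mouse promoters. TATAAA on the gene's strand was found in Ces3b, 30 bases before its start, and in 7.59% of all promoters. TTCNNNGAA (7.02% of all) and TGACNNNGC (10.2% of all), the letters of STAT and antioxidant response sites, were each searched on both strands and found in none of the 7. A match is only a match of letters.

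Across the livers the values of the whole table summed to 24602634 to 25255413 in 4-HPAA libraries and 22869813 to 25255447 in control libraries. From their pattern they were read as counts that the authors scaled by library, which no source used here states, and they are called normalised counts. Each row carries 1 transcript ID, for Ces1d, Ces1e, Ces3a and Ces3b a retained-intron transcript, and the sources used here do not say whether a value is per gene or per transcript. Albumin, the defining hepatocyte product, took 4.98 to 7.58% of the total in 4-HPAA livers and 7.59 to 8.72% in control livers, so the tissue was liver in every library. On the second principal component, 4-HPAA replicate 3 stood at −56.4, apart from all other livers at −7.52 to 17.0. On the first, 4-HPAA replicates 4 and 6 lay within the control range. Values without these livers are given where a result turns on them.

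Together the 10 genes made up 0.940 ± 0.0607% of the total in 4-HPAA livers and 0.917 ± 0.0806% in control livers (SD, n = 6 each). The ranges of the family's share overlapped, as did those of its subfamilies, given next without a test. The Ces1 genes held 0.490 ± 0.0582% in 4-HPAA livers and 0.552 ± 0.0471% in control livers. Ces2a and Ces2e held 0.0444 ± 0.00404% in 4-HPAA livers and 0.0488 ± 0.00409% in control livers. Ces3a and Ces3b held 0.406 ± 0.0439% in 4-HPAA livers, with a range of 0.330 to 0.451%, and 0.316 ± 0.0425% in control livers, with a range of 0.260 to 0.372%.

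**Figure D1:**
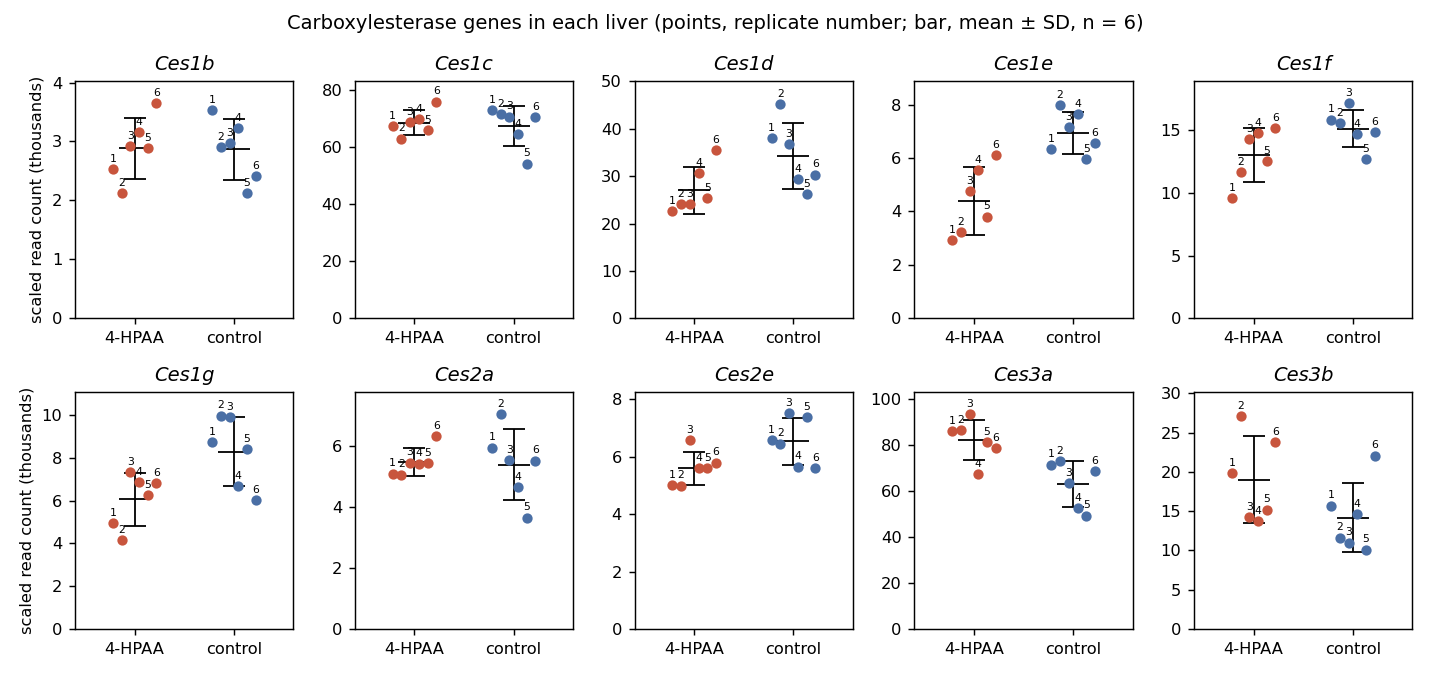
Normalised count of each of the 10 carboxylesterase genes in every liver, with 4-HPAA livers left of control livers. The vertical axes give scaled read counts, points are single livers with their replicate number, and bars give the group mean and SD (n = 6 each). The groups overlap for every gene, with Ces1e mostly lower and Ces3a mostly higher in 4-HPAA livers.

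Levels of different genes were compared per kilobase of the longest coding transcript of each gene. The ranks turn on that choice for the 4 genes whose row carries a retained-intron transcript of 387 to 820 bases. Per kilobase of that transcript, Ces1d would average 69829.9 in 4-HPAA livers and 88690.4 in control livers, above Ces1c in both. In 4-HPAA livers Ces3a was the most abundant on average at 40209 ± 4329 normalised counts per kilobase, followed by Ces1c at 37491 ± 2378, and Ces1b was the least abundant at 1468 ± 266 (SD, n = 6). In control livers the order of the leading genes was the other way round, with Ces1c at 36918 ± 3875 per kilobase and Ces3a at 30891 ± 4907, and Ces1b was again the least abundant at 1459 ± 264 (SD, n = 6). Below this pair, in the control order, came Ces1d at 13485 ± 2475 in 4-HPAA livers and 17127 ± 3494 in control livers, Ces1f at 6746 ± 1115 in 4-HPAA livers and 7859 ± 770 in control livers, and Ces3b at 7901 ± 2305 in 4-HPAA livers and 5903 ± 1843 in control livers. Ces1g, Ces1e, Ces2a and Ces2e averaged 2072 to 2785 per kilobase in 4-HPAA livers and 2421 to 3474 in control livers. Within single livers Ces1c exceeded Ces3a per kilobase in 2 of 6 4-HPAA livers and in 6 of 6 control livers. These neighbours were close, as their ranges overlapped in both groups. Ces1e likewise exceeded Ces2a per kilobase in 0 of 6 4-HPAA livers and in 6 of 6 control livers, with overlapping ranges in each group. Neither change of order between the groups would hold on average per kilobase of the row's own transcript. Ces3a would then average 100327 in 4-HPAA livers and 77076 in control livers, above Ces1c in both. Ces1e would average 6117 in 4-HPAA livers and 9673 in control livers, above Ces2a at 2951 and 2909. Ces3a lay above Ces1d, and Ces1d above Ces1f, without overlap in either group, while Ces1f and Ces3b overlapped in both.

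No gene of the family passed the test across all genes, and none in the table did. With limma, 0 of 12720 genes tested (0% called) passed at a Benjamini-Hochberg adjusted p of 0.05, and 0 of the 10 members, all of which passed the filter on low values. At an unadjusted p under 0.05, 4 members were lower in 4-HPAA livers (Ces1d, Ces1e, Ces1g and Ces2e), where 7.56% of all genes were, and 1 was higher (Ces3a), where 7.26% of all genes were. In either direction that is 5 of 10, beside 14.8% of all genes. The median log2 difference (4-HPAA minus control) of the 10 members was −0.11, beside −0.00 over all genes tested. Groups without overlap were seen for 0 of the 10, beside 0.354% of all genes lower and 0.307% higher. Without 4-HPAA replicate 3 there were 4 lower and 2 higher, but 2 lower without 4-HPAA replicate 1, 2 or 5 or control replicate 1, 2 or 3, and likewise by the exact permutation test. With values scaled to library totals, 1119 of 1788 genes at an unadjusted p under 0.05 were lower, against 962 of 1886 as reported. With 6 livers a group and no gene past adjustment, the differences below are measured values with intervals, not calls. In tissue RNA, fewer cells of a type cannot be told apart from less RNA per cell.

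Ces1e, known as egasyn, which binds beta-glucuronidase and keeps part of it in the endoplasmic reticulum, had the largest difference of the 10. Its normalised counts had a lowest value of 2924, a median of 4278 and a highest of 6103 in 4-HPAA livers, against 5971, 6863.5 and 7974 in control livers. The groups overlapped at 1 liver, since 5 of 6 4-HPAA livers lay below the lowest control liver and 4-HPAA replicate 6 lay above it. Mean counts were 4392 ± 1286 in 4-HPAA livers and 6945 ± 784 in control livers (SD, n = 6 each), so that the 4-HPAA mean was 63.2% of the control mean. The log2 difference was −0.71 ± 0.17 (SE), with a 95% interval of −1.06 to −0.35 and a limma adjusted p of 0.142. Ces1e ranked 68th by p among all genes. Its adjusted p was 0.0396 without 4-HPAA replicate 4, at a difference of −0.78, and 0.0404 with sample weights (limma arrayWeights), at −0.81. Without 4-HPAA replicate 3, the difference was −0.74 and the adjusted p 0.134, and over all 23 alternatives the adjusted p lay between 0.0396 and 0.297. The transcript of its partner beta-glucuronidase, Gusb, differed by 0.08 ± 0.11 (SE; limma adjusted p = 0.786).

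Ces1g, also called esterase-x, is a lipid hydrolase whose loss makes mice obese with fatty livers. Its counts had a lowest value of 4166, a median of 6535.5 and a highest of 7318 in 4-HPAA livers, against 6043, 8581.5 and 9983 in control livers. Only the lowest 2 4-HPAA livers lay below all controls. This gave a log2 difference of −0.45 ± 0.16 (SE), with a 95% interval of −0.80 to −0.11 and a limma adjusted p of 0.217.

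Ces1d is the triacylglycerol hydrolase that mobilises stored triglyceride for VLDL. Its counts had a lowest value of 22568, a median of 24732 and a highest of 35432 in 4-HPAA livers, against 26200, 33527.5 and 45219 in control livers. Here 4 of 6 4-HPAA livers lay below every control, and 4-HPAA replicates 4 and 6 were the exceptions. The log2 difference was −0.34 ± 0.14 (SE), with a 95% interval of −0.64 to −0.04 and a limma adjusted p of 0.287. Without 4-HPAA replicate 3 it was −0.31, with an unadjusted limma p of 0.0573. Ces1f, another Ces1 gene with the retrieval codons, had mean counts of 12993 ± 2147 in 4-HPAA livers and 15137 ± 1484 in control livers (SD, n = 6 each). Its log2 difference of −0.23 ± 0.11 (SE) had a 95% interval that reached 0.01. The unadjusted limma p was 0.0584, and with 1 library left out it lay between 0.0270 (without control replicate 5) and 0.145 (without 4-HPAA replicate 1).

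Ces1b and Ces1c, whose coding ends lack the retrieval codons, had log2 differences near 0. Ces1c had a lowest count of 63033, a median of 68161.5 and a highest of 75968 in 4-HPAA livers, against 54278, 70617 and 73066 in control livers. Its log2 difference was 0.03 ± 0.08 (SE), with a 95% interval of −0.15 to 0.21 (limma adjusted p = 0.912). Ces1b averaged 2882 ± 522 in 4-HPAA livers and 2865 ± 518 in control livers (SD, n = 6 each). The log2 difference was 0.01 ± 0.14 (SE), with a wider interval of −0.29 to 0.31. The signs of both are not settled, since library-total scaling gave −0.02 for Ces1b and −0.003 for Ces1c.

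Ces2a, a member of the subfamily that in humans hydrolyses drugs and acylglycerols in gut and liver, differed by less than its spread between livers. Its counts had a lowest value of 5056, a median of 5423.5 and a highest of 6316 in 4-HPAA livers, against 3645, 5521.5 and 7025 in control livers. The control livers spanned the whole 4-HPAA range. The log2 difference was 0.05 ± 0.13 (SE), with a 95% interval of −0.23 to 0.32, and its sign turned to −0.02 with sample weights. Ces2e, of the same subfamily, had 4996, 5602 and 6571 as lowest, median and highest count in 4-HPAA livers, against 5611, 6512 and 7526 in control livers. In 4 of 6 4-HPAA livers it lay below the lowest control. Its log2 difference of −0.22 ± 0.10 (SE) came with a 95% interval of −0.43 to −0.02 and a limma adjusted p of 0.301.

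Ces3a had the highest mean of the 10 genes in 4-HPAA livers, and of the members with positive differences it had the smallest p. Its counts had a lowest value of 67422, a median of 83723 and a highest of 93472 in 4-HPAA livers, against 49353, 66237 and 73131 in control livers. In 5 of 6 4-HPAA livers it exceeded every control, and 4-HPAA replicate 4 was the exception. On the log2 scale the difference was 0.39 ± 0.11 (SE), with a 95% interval of 0.15 to 0.63 and a limma adjusted p of 0.183, and it was 0.35 without 4-HPAA replicate 3, the liver in which Ces3a was highest. Ces3b, its neighbour on the chromosome, had 13740, 17517 and 27100 as lowest, median and highest count in 4-HPAA livers, against 10087, 13133.5 and 22057 in control livers. It varied widely in both groups, and 2 of 6 4-HPAA livers lay above all controls. Its log2 difference was 0.42 ± 0.21 (SE), with a 95% interval of −0.03 to 0.88 (limma adjusted p = 0.369).

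**Figure D2:**
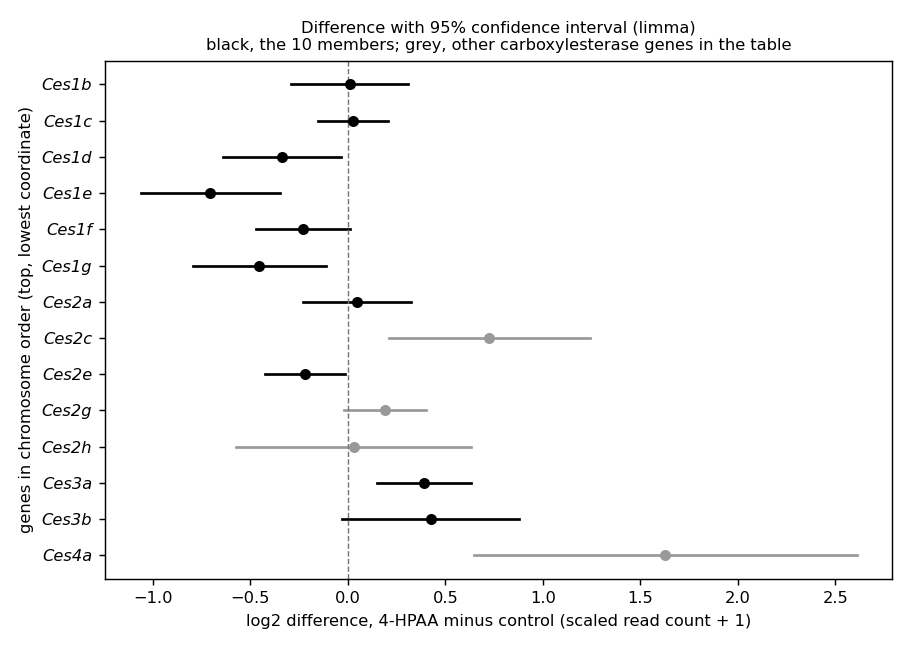
Log2 difference (4-HPAA minus control) of each carboxylesterase gene, with its 95% interval from limma, in chromosome order, the 10 members in black and the 4 other genes in grey. A positive value means higher in 4-HPAA livers. Ces1e lies lowest of the 10 members at −0.71, Ces1b and Ces1c lie at 0.01 and 0.03, and Ces3a and Ces3b lie at 0.39 and 0.42.

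The remaining carboxylesterases of the table were low. Of 20 carboxylesterase genes in GENCODE M21, the table held 4 besides these 10, and all 4 had positive differences (49.8% of all genes did), 2 of them at an unadjusted p under 0.05 (7.26% of all genes). Their median log2 difference was 0.46. Ces4a had a lowest count of 46, a median of 197 and a highest of 279 in 4-HPAA livers, against 23, 48 and 94 in control livers. In 5 of 6 4-HPAA livers it was above every control, with a log2 difference of 1.63 ± 0.46 (SE; limma adjusted p = 0.183). The exception was 4-HPAA replicate 4, without which the difference was 1.97 and the adjusted p 0.0297. Ces2c averaged 759 ± 274 in 4-HPAA livers and 439 ± 92.4 in control livers (SD, n = 6 each), and its log2 difference was 0.73 ± 0.24 (SE; limma adjusted p = 0.206). Ces2g differed by 0.19 ± 0.10 (SE) and Ces2h by 0.03 ± 0.28 (SE). Ces2h had counts of only 11 to 39 in 4-HPAA livers and 18 to 31 in control livers.

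Because the differences of the members had unlike signs, their ratios within each liver were compared between the groups. Such ratios do not depend on how a library was scaled. An exact permutation test over every split of the 12 livers into 6 and 6 (two-sided, smallest possible p 0.00216) was run for the 45 pairs. In 24 of 45 pairs (53.3%) the unadjusted p was under 0.05, where the same test of a member against any other gene gave 28.8% (36687 of 127190). Adjusted over all 127145 different ratios of a member to another gene, 0 of the 45 pairs passed, the smallest adjusted p being 0.0853. As no p can be under 0.00216, a ratio could pass this adjustment only if many ratios reached that value. The 0 therefore cannot decide about a single pair. Adjusted over the 45 pairs as planned, 18 passed, but these genes were chosen with results of the same livers known, so that count is not independent evidence. It was 6 without control replicate 1, 3 or 5, and 18 without 4-HPAA replicate 3 or 4.

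The ratio of Ces3a to Ces1e separated the groups without overlap. It was 12.2 to 29.4 in 4-HPAA livers, with a mean of 20.4 ± 7.06, and 6.88 to 11.3 in control livers, with a mean of 9.16 ± 1.57 (SD, n = 6 each). The log2 ratio differed by 1.10 ± 0.24 (SE; exact permutation p = 0.00216, adjusted p = 0.0853 over all ratios). The groups were also apart for Ces1e against Ces1b, Ces1c and Ces2a. Ces1c over Ces1e averaged 16.6 ± 4.22 in 4-HPAA livers and 9.78 ± 1.17 in control livers, and Ces1b over Ces1e averaged 0.679 ± 0.114 in 4-HPAA livers and 0.414 ± 0.0755 in control livers (SD, n = 6 each). Each of these reached the smallest p the splits allow, and with it the same adjusted p over all ratios. Groups without overlap were thus found in 4 of the 45 pairs, all of which involve Ces1e. Over all ratios of a member to another gene the share was 2.54%, and for Ces1e alone 2032 of 12719 ratios had groups without overlap.

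Other ratios to Ces3a differed in the same direction with overlap. Ces3a over Ces1g, the lipid hydrolase, averaged 14.2 ± 4.07 in 4-HPAA livers and 7.84 ± 1.95 in control livers (exact permutation p = 0.00433, n = 6 each). Ces3a over Ces1d, the triacylglycerol hydrolase, averaged 3.15 ± 0.765 in 4-HPAA livers and 1.86 ± 0.224 in control livers (exact permutation p = 0.00649, n = 6 each). Ces3a over Ces2e averaged 14.8 ± 2.09 in 4-HPAA livers and 9.82 ± 2.07 in control livers (exact permutation p = 0.00433, n = 6 each). Ces3a against Ces3b, which share the most sequence, gave an exact permutation p of 0.877.

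**Figure D3:**
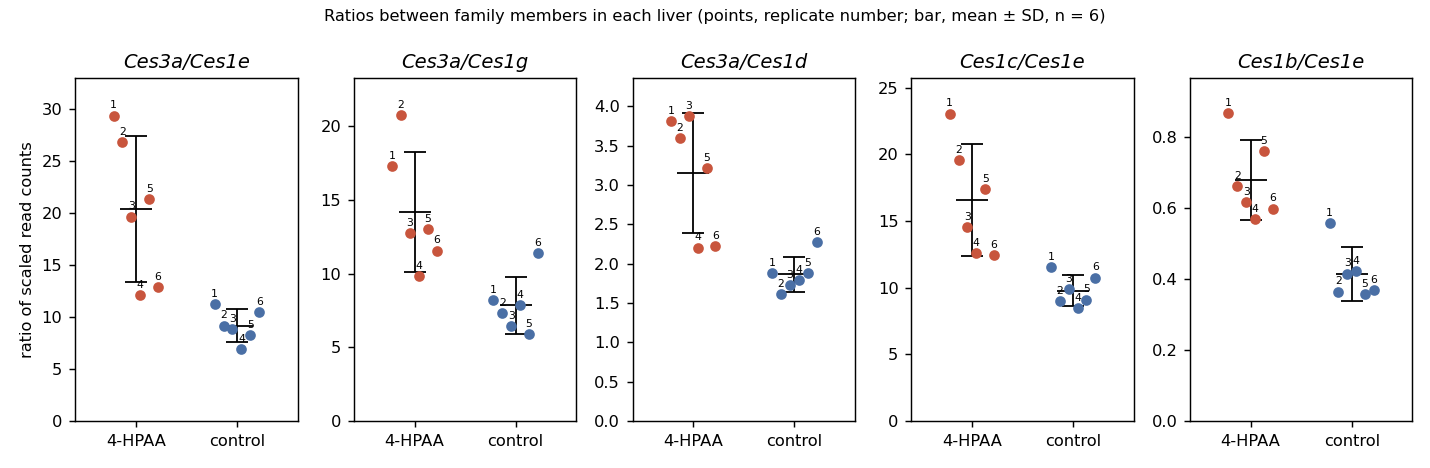
Ratios between carboxylesterase genes within each liver, with 4-HPAA livers left of control livers. Points are single livers with their replicate number, and bars give the mean and SD (n = 6 each). Ces3a over Ces1e runs from 12.2 to 29.4 in 4-HPAA livers and from 6.88 to 11.3 in control livers, without overlap.

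Read against single members, the background share was far from even. The ratio of Ces1e to any other gene differed between the groups at an unadjusted p under 0.05 for 73.7% of genes, and the ratio of Ces3a for 53.4%. For Ces1b and Ces2a the shares were 5.1% and 5.3%. Within the family, 3 of the 9 pairs of Ces1b and 4 of the 9 pairs of Ces2a had such a p. Since both genes differ by about 0, these pairs restate the differences of their partners. For Ces1e it was 8 of 9 and for Ces3a 7 of 9.

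The members were also set beside their coding ends, after the values were seen and without a test. Within Ces1, Ces1b and Ces1c, without the retrieval codons, had differences near 0, and the other 4 genes, with the codons, had negative ones. Outside Ces1 this did not hold, since Ces2a carries the codons and differed by 0.05. Whether the coding ends have any part in the differences was not tested.

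How far members varied together was described by correlation. Over the 12 livers, as deviations from the group means, Pearson's r was positive for 35 of 45 pairs, with a median of 0.43, and above 0.7 for 17.8% of pairs. Between members and all other genes the median was −0.00, and 2.05% of 127100 pairs were above 0.7. Those other genes were not matched to the members in level or cell type. Values of 1 liver share their library and its scaling. For Ces3a the groups went opposite ways, with r to Ces1d of −0.67 in 4-HPAA livers and 0.82 in control livers, to Ces1c of −0.35 in 4-HPAA livers and 0.90 in control livers, and to Ces2a of −0.27 in 4-HPAA livers and 0.94 in control livers. Each is over 6 livers, and the difference was not tested. Permutation p-values below come from 100000 resamples within groups and are adjusted over the 45 pairs.

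Ces1c and Ces2a, on different clusters, were the closest pair, with r = 0.91 (permutation p = 0.000540, adjusted p = 0.0121) and Spearman's rho = 0.94 (permutation p = 0.000460, adjusted p = 0.0207). Without the 2 livers farthest from the median of the first gene named, r was 0.80. Ces1e and Ces1f had r = 0.86 (permutation p = 0.00178, adjusted p = 0.0265) and rho = 0.87 (permutation p = 0.00659, adjusted p = 0.0440), with r = 0.74 without the 2 farthest livers. Inside the family, Ces1e was thus closest in pattern to a gene with a smaller difference between groups. Ces1g and Ces2e had r = 0.83 (permutation p = 0.00236, adjusted p = 0.0265) and rho = 0.74 (permutation p = 0.0121, adjusted p = 0.0543), with r = 0.77 without the 2 farthest livers.

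Ces3a and Ces3b, the most alike in sequence, were not close in pattern, with r = 0.33 (permutation p = 0.317, adjusted p = 0.501) and rho = 0.43 (permutation p = 0.191, adjusted p = 0.307). Ces3b ran against Ces1g, with r = −0.74 (permutation p = 0.0120, adjusted p = 0.0451) and rho = −0.57 (permutation p = 0.0738, adjusted p = 0.151). Without the 2 farthest livers r was weaker, at −0.42, with the same sign. Within each group r was also negative, at −0.70 in 4-HPAA livers and −0.77 in control livers. How far this relation depends on the 2 farthest livers was not tested further.

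**Figure D4:**
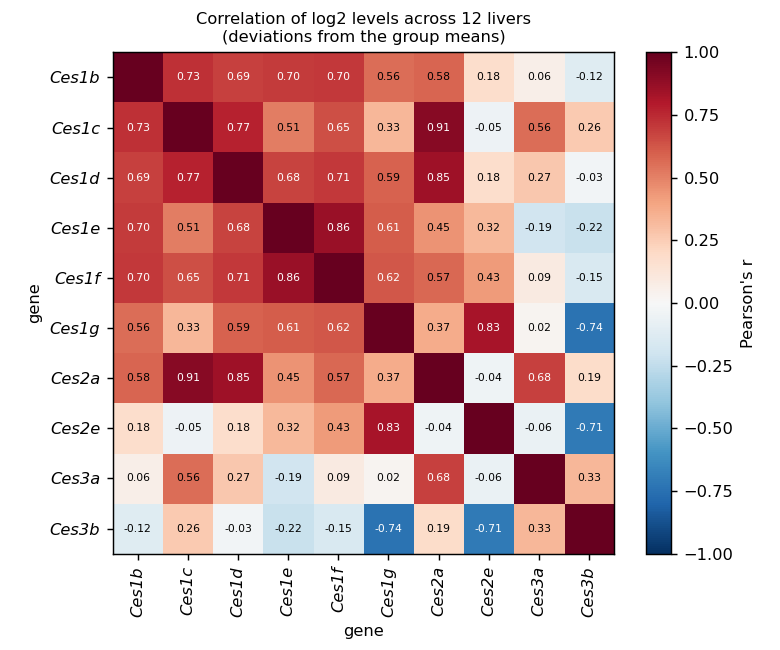
Pearson's r between carboxylesterase genes over the 12 livers, as deviations of log2 counts from the group means. Of 45 pairs, 35 are positive; Ces1c with Ces2a is highest at 0.91 and Ces1g with Ces3b lowest at −0.74.

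Among 12640 genes outside the family, those closest in pattern over the 12 livers were named by r on the same deviations, as a description. For Ces1e they were the apolipoprotein genes Apoc1 (r = 0.94), Apoa2 (0.93) and Apoc3 (0.93), all carried on lipoproteins that the liver secretes. Their own log2 differences between groups were −0.17 for Apoc1, −0.35 for Apoa2 and −0.05 for Apoc3. For Ces3a they were C1ra (r = 0.95), a protease of the complement pathway, Hsd3b3 (0.94), a steroid dehydrogenase, and Acrbp (0.92). C1ra differed by 0.38 and Hsd3b3 by 0.20 between the groups. For Ces3b they were Zc3h13 (r = 0.95), Zfp507 (0.94) and Lifr (0.93), the receptor for leukaemia inhibitory factor, which differed by 0.59. For Ces1d, Wrnip1 was closest at 0.97, and for Ces1g it was Cxxc5 at 0.92. Ces2a was closest to Tk1, a thymidine kinase, and Ahcy, which splits S-adenosylhomocysteine, both at r = 0.94, Ces1c to 2310001H17Rik at 0.95, Ces1f to Tef, a clock-driven transcription factor, at 0.93, Ces2e to Aldh9a1, an aldehyde dehydrogenase, at 0.94, and Ces1b to Hibadh, an enzyme of valine breakdown, at 0.90.

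Other genes of the same chemistry were set beside the family. Of 25 other lipases and esterases tested, 17 had negative differences (50.2% of all genes did) and 8 positive ones (49.8% of all genes). Their median log2 difference was −0.14, beside −0.00 over all genes. At an unadjusted p under 0.05, 6 of 25 were lower (7.56% of all genes were) and 0 higher (7.26% of all genes were). Lipa, the lysosomal acid lipase, differed by −0.27 ± 0.09 (SE), Lipg, the endothelial lipase, by −0.58 ± 0.23, and Bche, butyrylcholinesterase, by −0.50 ± 0.23. Pnpla3, a lipid droplet acylhydrolase, differed by −1.08 ± 0.44 at mean counts of 13.0 in 4-HPAA livers and 30.3 in control livers. None had a limma adjusted p under 0.05.

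The list of VLDL assembly and endoplasmic reticulum retention had a median log2 difference of 0.07 over 18 genes tested. At an unadjusted p under 0.05, 3 were higher (16.7%, beside 7.26% of all genes) and 0 lower (beside 7.56% of all genes). These were Surf4, a cargo receptor for secreted proteins, at 0.20 ± 0.07 (SE), Pdia3, a disulphide isomerase, at 0.33 ± 0.13, and Kdelr2, a receptor that returns proteins to the endoplasmic reticulum, at 0.21 ± 0.09. Apob, the structural protein of VLDL, differed by 0.05 ± 0.10 and Mttp, which loads it with lipid, by 0.01 ± 0.09.

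Over 18 nuclear receptors and other regulators of liver genes, the median log2 difference was −0.03. At an unadjusted p under 0.05, 2 were higher (11.1%, beside 7.26% of all genes) and 0 lower (beside 7.56% of all genes). Stat3, the transducer of interleukin-6, differed by 0.44 ± 0.14 (SE). Nr1i2 (PXR) and Nr1i3 (CAR), the sensors of foreign compounds that control many drug enzymes, differed by −0.11 ± 0.10 and −0.12 ± 0.14. Targets of CAR, PXR and NRF2 had a median of −0.44 over 21 genes. At an unadjusted p under 0.05, 9 were lower (42.9%, beside 7.56% of all genes) and 1 higher (4.76%, beside 7.26% of all genes). Cyp3a11, the main PXR-induced cytochrome P450, averaged 7412 ± 3637 in 4-HPAA livers and 18486 ± 5149 in control livers (SD, n = 6 each), with a log2 difference of −1.41 ± 0.28 (SE; limma adjusted p = 0.103). Abcc3, an organic anion exporter, differed by −0.74 ± 0.21 and Gstm3, a glutathione transferase, by −0.96 ± 0.30, whereas Txnrd1, an NRF2 target, differed by 0.22 ± 0.07.

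Genes of the acute phase response and markers of other cells differed alongside the members. All 20 acute phase genes tested had positive differences, beside 49.8% of all genes, with a median of 0.61. At an unadjusted p under 0.05, 17 were higher, beside 7.26% of all genes. Their summed counts were 737806 to 1376516 in 4-HPAA livers and 605249 to 826255 in control livers. Stellate and fibroblast markers were negative in 9 of 9, beside 50.2% of all genes, with a median of −0.62. Their summed counts were 3914 to 7570 in 4-HPAA livers and 6389 to 9532 in control livers. Adipocyte markers were negative in 3 of 3 tested (Cfd, Cidec and Fabp4), beside the same 50.2%. They summed to 283 to 916 in 4-HPAA livers and 630 to 3218 in control livers, while Adipoq, Plin1 and Lep were not in the table. Kupffer cell and macrophage markers had a median of −0.34 over 11 genes, at sums of 2553 to 3980 in 4-HPAA livers and 1971 to 7744 in control livers. The part of other cells and of the acute phase response in the differences of the members was not tested.

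Hepatocyte markers themselves were mixed. Of 9 tested, 6 had positive and 3 negative differences, with a median of 0.12, and their summed counts were 1920290 to 2508454 in 4-HPAA livers and 2250215 to 2760286 in control livers. Pericentral markers had a median of 0.16 over 7 genes, at sums of 297099 to 396465 in 4-HPAA livers and 254140 to 381816 in control livers. Periportal markers had a median of 0.07 over 7 genes, at sums of 209835 to 252218 in 4-HPAA livers and 175545 to 229786 in control livers. In each of these 2 lists 6 of 7 genes had positive differences, beside 49.8% of all genes. At an unadjusted limma p under 0.05, 1 pericentral and 2 periportal markers were higher (7.26% of all genes were), and 0 of either were lower (7.56% of all genes were). Endothelial markers (median −0.26 over 7) summed to 3029 to 4403 in 4-HPAA livers and 3266 to 4113 in control livers, and cholangiocyte markers (median −0.27 over 5) to 1064 to 1876 in 4-HPAA livers and 1037 to 1715 in control livers. T, NK and B cell markers (median −0.48 over 3 tested) summed to 86 to 200 in 4-HPAA livers and 53 to 117 in control livers. Of 6 pancreatic acinar markers only Cela1 was in the table, at 687 to 1631 in 4-HPAA livers and 438 to 1244 in control livers.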

How the data were processed

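The study measured RNA in 12 liver samples of mice (6 with 4-HPAA, 6 with scaffold control). Directional TruSeq mRNA libraries were sequenced on a NovaSeq after RNeasy purification and a Bioanalyzer check, per the labels' protocols. Build GRCm38 and the tools STAR, HTSeq, cutadapt, FastQC 0.11.9, edgeR and DESeq2 1.28.1 appear in the submitters' processing notes. The sources used here do not give their roles, the annotation or strand use. The deposited values are whole numbers handled as a score, because they read as counts that the authors scaled by 1 factor per library and rounded: low whole numbers are missing in 5 of 12 libraries. On that reading their totals, 22869813 to 25255447, are sums after scaling and do not give the sequencing depth. A count model was not used because the values read as scaled.

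Each of the 13267 rows carries 1 Ensembl transcript ID, and 13200 were named from GENCODE M21. For 4 members (Ces1d, Ces1e, Ces3a and Ces3b) that ID is a retained-intron transcript, so IDs were read as gene labels, and the sources used here do not say whether values are per gene or per transcript. The smallest value is 2. No column belongs to other samples.

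The 12720 genes that reached 10 in 6 or more libraries were tested with limma 3.58.1 in R 4.3.3 (trend and robust settings) on log2(value + 1), which understates changes of low genes, with Benjamini-Hochberg adjustment over all of them at 0.05. Ratios were tested by exact permutation, and correlations by 100000 permutations within groups. Levels per kilobase use the longest coding transcript. The limma fit, and not the other steps, was tested on simulated data, with planted changes larger than those of the members. Members and lists were chosen with earlier results of these data known. Genes named are all members, the other carboxylesterases, genes of smallest p in each list, and the 3 closest in pattern to each member; not all of these are described, and 1 is not reported here. Gusb, Apob, Mttp, Nr1i2 and Nr1i3 were added as partners or regulators after their values were seen. Alternatives were other pseudocounts, filters, scalings and tests, sample weights, a replicate block and each library left out. Same-numbered samples of the groups correlated at −0.18 to 0.28, so numbers were not taken to pair them. Figures used matplotlib 3.10.9 in Python 3.11.15.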

Additional observations from a re-analysis of the deposited data

Results flagged for a closer look

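Of 28 groups of 6 livers tested for a library far from the others (14 carboxylesterase genes in each group), 1 was found. Ces2a reached 6316 normalised counts in 4-HPAA replicate 6, while the next highest 4-HPAA liver had 5448 and the lowest 5056. The gap to the nearest liver was 0.689 of the group's whole range, above Dixon's 95% critical value for 6 values. Chance alone gives about 1 such case in 20 groups. The value lies within the control range of 3645 to 7025. Without this liver, as with it, 0 carboxylesterase genes passed the limma adjusted threshold.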

How the results depend on the processing

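The differences of Ces1d (−0.47 to −0.25), Ces1e, Ces1f (−0.30 to −0.15), Ces1g (−0.59 to −0.35), Ces2e (−0.27 to −0.18), Ces3a (0.29 to 0.45) and Ces3b (0.31 to 0.56) kept their sign in all 23 alternatives run. Ces1e passed in 2, with sample weights (−0.81, limma adjusted p = 0.0404) and without 4-HPAA replicate 4 (−0.78), and lay between −0.81 and −0.60 with 1 library left out. Genes near 0 changed sign. Ces1b was −0.0209 with library totals, −0.0149 with quantile normalisation, −0.0599 with sample weights and −0.0725 to 0.0926 with 1 library left out. Ces1c was −0.00293, −0.12, −0.000386 and −0.0343 to 0.0515 under the same settings. Ces2a was −0.0250 with sample weights and −0.0607 to 0.13 with 1 library left out. Genes past the adjusted threshold, 0 as reported, numbered 139 with sample weights, 11 with the replicate block and 0 to 193 with 1 library left out, the highest without 4-HPAA replicate 4 and 5 without control replicate 1. At an unadjusted p under 0.05 there were 3050 with sample weights and 1325 to 2490 with 1 library left out, against 1886. Of the 1886, 962 were lower, against 1119 of 1788 with library totals, which moved the median of all genes to −0.03, and 590 of 1425 with a stricter filter. Against 18 pairs of members past adjustment over 45, the count was 6 to 22 with 1 library left out. It was 0 when adjusted over all ratios (added after the data were seen) and 0 with the replicate block. The exact test with the replicate block gave no p under 0.03125, so a pair could pass adjustment only if many pairs reached that value. The adjustment over all ratios had a limit of the same kind. For each change of call, the cause was not tested. The smallest value of a member was 2128 on the deposited scale, which does not give the sequencing depth. The 6 livers a group limit the intervals.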
